A study of Mus musculus with 4 samples.

Results

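The genes described here are 10 messenger RNAs that have been reported as targets of the microRNA miR-205 in cell types other than the hair follicle: Vegfa, Prkce, Lrp1, E2f1, Smad1, Smad4, Yes1, Src, Bcl2l2 and Ddx5. They were taken as a named list, out of 18193 genes measured on Affymetrix mouse arrays. The question was how strongly hair follicle stem cells carry these transcripts, and whether the transcripts are more abundant when miR-205 is missing. 2 arrays carried RNA of miR-205 knockout (KO) hair follicle stem cells and 2 arrays RNA of wild-type (WT) hair follicle stem cells. All 4 samples came from the skin of C57BL/6 mice at postnatal day 4 and were collected by flow cytometry. The titles number the arrays 1 and 2 in each genotype as biological replicates. The labels do not say whether these were separate animals or pools, so p-values measure only the spread between these samples. They also name no miR-205 allele. The treatment text shared by all 4 samples describes another mouse system, a K14-rtTA/TRE-miR-203/K14-H2BGFP line given doxycycline beside TRE-miR-203/K14-H2BGFP littermates, and it was not used to form groups.

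A microRNA guides a silencing complex to messenger RNAs, mostly through pairing between its seed and sites in the 3′ untranslated region. The paired messenger is translated less and is often degraded sooner, so a transcript under such control can become more abundant when the microRNA is lost. miR-205 is an abundant microRNA of stratified epithelia, the skin included. The arrays measured RNA and not protein.

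The sequences are shown because the seed is the part through which most direct targets pair. They are the mouse hairpin, with its mature strands in capitals, and the mature 5p strand, with its seed (bases 2 to 8) in capitals. Both come from RefSeq on build GRCm38.p6, where the hairpin lies at chr1:193507463-193507530 on the minus strand.
Mir205 hairpin: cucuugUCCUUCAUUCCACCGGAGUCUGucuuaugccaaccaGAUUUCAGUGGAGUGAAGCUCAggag
mmu-miR-205-5p: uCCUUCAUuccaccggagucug
The messenger sequence that pairs with the whole seed is AUGAAGG. Of the 1738 mature mouse microRNAs in the RefSeq table, 1 has this seed, which is miR-205-5p itself. Sites in the untranslated regions of the 10 genes were not analysed here.

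The arrays themselves bear on every result below. The authors used RMA, which puts the arrays on a common distribution, and all values below are on its log2 scale. A difference is KO minus WT on that scale. Xist and Eif2s3y were the only genes with a limma adjusted p under 0.05, 2 of 18193 (0.011%). Xist, the RNA of the inactive X chromosome, was at 5.26 and 5.45 on the KO arrays, against 13.28 and 13.19 on the WT arrays. The Y-linked gene Eif2s3y was at 9.60 and 9.57 on the KO arrays, against 3.05 and 2.86 on the WT arrays. With 3 arrays no gene passed, whichever array was left out, but the differences hardly moved, with Xist at -7.98 to -7.79 and Eif2s3y at 6.53 to 6.73 (limma adjusted p from 0.38 to 0.86). Genotype therefore cannot be told apart from this sex-linked difference. All 10 genes described here are autosomal, which does not separate genotype from it. Of the hair follicle stem cell markers 10 of 10, Krt15, Sox9 and Lhx2 among them, had a mean above the median gene, with a median of 11.28 and 11.30 on the KO arrays and 11.39 and 11.21 on the WT arrays. The surface marker Cd34 did so through WT 1 alone, at 6.87 and 6.69 on the KO arrays and 8.32 and 6.20 on the WT arrays, so the arrays do not settle the label by that marker. Dermal fibroblast markers were also present: 10 of the 11 had a mean above the median gene, Twist2 through WT 1 alone. Their medians were 9.98 and 9.01 on the KO arrays and 10.77 and 9.03 on the WT arrays, and 10 of the 11 were highest on WT 1. Few or none of the markers of endothelial (1 of 6) and immune cells (0 of 6) lay above the median gene, and 4 of 6 melanocyte and 4 of 6 differentiated epidermis markers did. Differentiated epidermis markers had a median of 9.32 and 9.22 on the KO arrays and 8.77 and 8.52 on the WT arrays, with a median difference of 0.29. Of that list Krt1, Krt10 and Krtdap had both KO arrays above both WT arrays, as 8.2% of all genes had, with differences of 1.25 (SE 0.19), 0.81 (SE 0.28) and 0.37 (SE 0.12). The rest of the list, Lor, Flg and Ivl, had opposite signs in the numbers. They differed by 0.23, -0.29 and -0.45 in number 1 and by -0.042, 0.70 and 0.22 in number 2. Melanocyte markers had a median difference of -0.096, and 5 of the 6 were lower in KO in both numbers, beside 16.8% of all genes. The transcription factor gene Mitf was the extreme of that list at -0.47 (SE 0.058), and Kit had the highest difference at 0.17 (SE 0.54). No marker in these lists other than the sex-linked pair passed the test.

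By its brightest probe set, none of the 10 published targets was higher in KO cells in both replicate numbers. Over all genes, 24% were higher in KO in both numbers, and among genes above the median level, where all 10 targets lie, 30.4% were. 1 of the 10, Vegfa, was lower in both numbers, as were 16.8% of all genes. The same shares of all genes, 24% and 16.8%, stand beside the counts of related genes below. No target passed the test in either direction, and none had an unadjusted p under 0.05, a level that 1.88% of all genes reached (limma adjusted p = 1 for each of the 10, unadjusted p from 0.33 to 0.95). With 4 arrays the threshold was hard to reach. Even the Y-linked genes Kdm5d and Uty, with differences of 4.49 (SE 0.13) and 3.48 (SE 0.22), did not pass it. Not passing, here and in the lists below, therefore does not show that a gene was unchanged. The median difference of the 10 was -0.013, beside 0.0082 over all genes, and it ran from -0.091 without KO 1 to 0.13 without KO 2. Single differences ran from -0.15 for Src to 0.13 for Lrp1. No target had both KO arrays above both WT arrays, as 8.2% of all genes had. That count depended on KO 2: without KO 2, 6 of the 10 had KO 1 above both WT arrays, as did 29.1% of all genes. The count was 0 without KO 1 (28.4% of all genes), 1 without WT 1 (26.1%) and 1 without WT 2 (28.3%). In a bulk measurement of sorted cells, fewer cells of a type and less RNA per cell cannot be told apart.

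**Figure D1:**
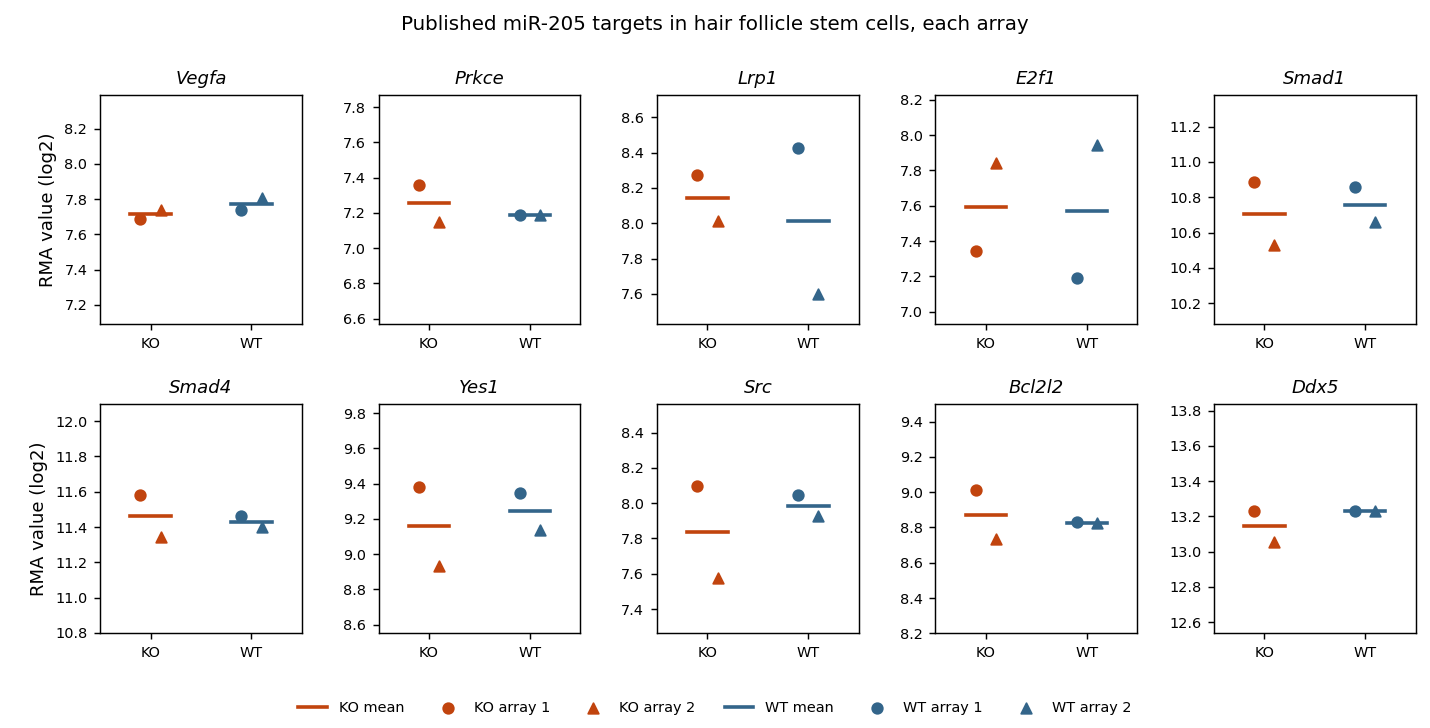
RMA expression values (log2, vertical axes, each spanning the same range of 1.3) of the 10 published miR-205 targets on the 2 KO and 2 WT arrays. Circles are arrays numbered 1, triangles arrays numbered 2 and bars group means, and in every panel the KO and WT points overlap or touch.

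In number 1, 8 of the 10 targets were higher in KO (48.8% of all genes were), and in number 2, 1 of the 10 was (45.8%). The usual pattern was thus a small positive difference between the arrays numbered 1 and a small negative one between those numbered 2. It held for 8 of the 10 targets, Prkce, E2f1, Smad1, Smad4, Yes1, Src, Bcl2l2 and Ddx5, beside 17.2% of all genes and 19.6% of genes above the median level. KO 2 was the lowest of the 4 arrays for 7 of the 10 targets, beside 18.7% of all genes. KO 1 was the highest for 6 of the 10, beside 25.3% of all genes. For 8 of the 10 the numbers lay farther apart than the genotypes, beside 54.3% of all genes. These counts are a description, since the 10 genes were read on the same 4 arrays.

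**Figure D2:**
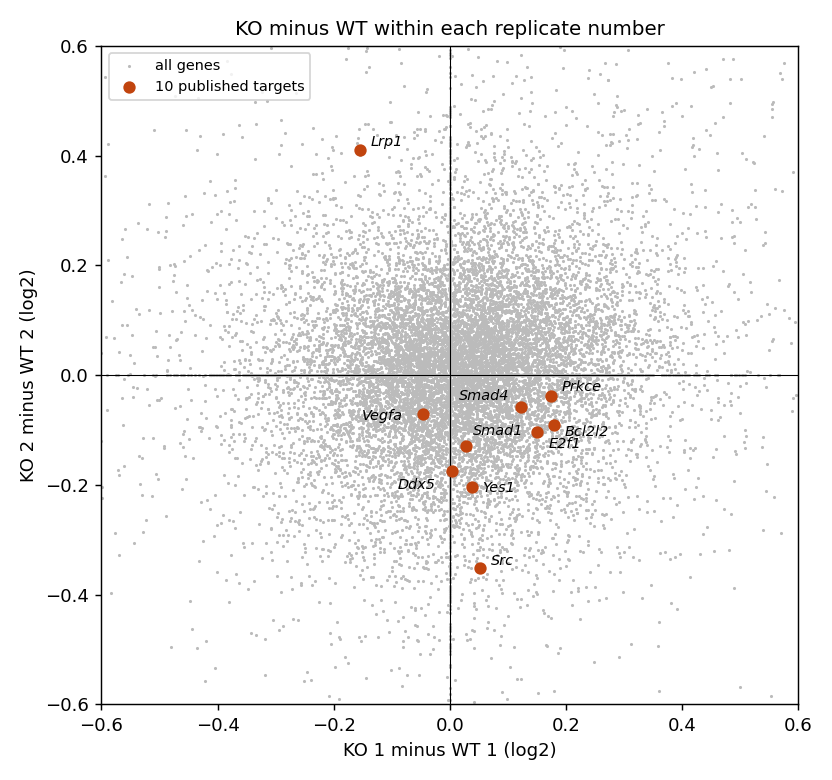
KO minus WT (log2) between the arrays numbered 2, vertical axis, against that between the arrays numbered 1, horizontal axis, for all genes (grey) and the 10 published targets (red). By its brightest probe set no target lies in the upper right part, where KO is higher in both numbers, and 467 of the 18193 genes lie outside the plotted range of 0.6.

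Vegfa encodes a secreted growth factor that acts on blood vessels through receptor tyrosine kinases, and the hair follicle epithelium is a known source of it. It has been reported as a miR-205 target in cancer cell lines. Its brightest probe set, 1420909_at, was at 7.69 and 7.74 on the KO arrays, against 7.74 and 7.81 on the WT arrays. The groups met at 7.74, a value shared by KO 2 and WT 1. The difference was -0.059 with an SE of 0.051 (95% interval -0.22 to 0.10), so the upper bound of this probe set is a 1.07-fold higher level in KO. The other probe set, 1451959_a_at, was dimmer and less even, at 5.70 and 6.57 on the KO arrays against 6.34 and 6.39 on the WT arrays. KO 1 was the low value there, and the difference was -0.64 in number 1 and 0.18 in number 2, with a 95% interval of -1.37 to 0.90. Among the other VEGF ligands and receptors 9 of 9 were measured, none passed, 1 was higher and 3 were lower in KO in both numbers, and the median difference was -0.094. The lymphatic growth factor gene Vegfc differed by -0.45 (SE 0.13) and the VEGF receptor gene Kdr by -0.24 (SE 0.090), which did not pass (limma adjusted p = 1). Kdr is also an endothelial marker, and that list of 6 had a median of 5.62 and 5.55 on the KO arrays and 5.62 and 5.69 on the WT arrays. The part of these cells in the result was not tested.

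Prkce encodes protein kinase C epsilon, a kinase activated by diacylglycerol that has been reported as a miR-205 target in prostate cancer cells. Probe set 1452878_at was at 7.36 and 7.15 on the KO arrays, against 7.19 on each of the WT arrays. The KO arrays lay on both sides of the WT value, and the difference was 0.068 (SE 0.094, 95% interval -0.23 to 0.36). Its other 3 probe sets were dim, with values from 2.85 to 5.70, and none of them was higher in KO in both numbers. Of 8 other protein kinase C genes 7 were measured, none passed, 2 were higher and 1 was lower in both numbers, and the median difference was 0.019. Those of smallest p were Prkcb at -0.11 (SE 0.074) and Prkca at 0.14 (SE 0.14).

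Src and Yes1 encode closely related tyrosine kinases at the cell membrane that signal from integrins and growth factor receptors, and both have been reported as miR-205 targets in renal cancer cells. Src, read by 1450918_s_at, was at 8.10 and 7.58 on the KO arrays, against 8.05 and 7.93 on the WT arrays. Its KO values lay outside the WT range on both sides, KO 2 being the lowest by 0.35 against WT 2. The difference was -0.15 (SE 0.22, 95% interval -0.84 to 0.54). The suffix of this probe set marks probes that may match more than 1 gene. The other Src probe set, 1423240_at, was dimmer at 6.29 and 6.13 on the KO arrays against 6.24 and 6.23 on the WT arrays, with the same signs. Yes1, read by 1449090_a_at, was at 9.38 and 8.94 on the KO arrays, against 9.35 and 9.14 on the WT arrays. KO 1 and KO 2 were again the highest and the lowest array, and the difference was -0.083 (SE 0.20, 95% interval -0.72 to 0.55). Its 3 dimmer probe sets went different ways: 1456843_at differed by -0.17 and -0.11 in numbers 1 and 2, 1418470_at by 0.19 and -0.015, and 1458878_at by 0.030 and 0.042. Of 11 other SRC family kinases and regulators 8 were measured, none passed, 2 were higher and 0 were lower in both numbers, and the median difference was 0.021. Frk, a SRC-related kinase, differed by 0.38 (SE 0.072), at 6.89 and 7.03 on the KO arrays against 6.61 and 6.56 on the WT arrays. It was the 1 gene of the list with an unadjusted p under 0.05 and did not pass (limma adjusted p = 1). Fyn differed by -0.12 (SE 0.11).

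Lrp1 encodes a large endocytic receptor of the LDL receptor family that clears many extracellular ligands, and it has been reported as a miR-205 target in glioblastoma cells. It was the most uneven of the 10 in WT cells: probe set 1448655_at was at 8.27 and 8.01 on the KO arrays, against 8.43 and 7.60 on the WT arrays. Both KO values lay between the WT values. The difference was 0.13 (SE 0.35, 95% interval -0.98 to 1.23), being -0.15 in number 1 and 0.41 in number 2. Lrp1 was the 1 target of the 10 that was higher in KO in number 2, and its interval does not exclude a 2.35-fold higher level in KO. From high to low its arrays ran WT 1, KO 1, KO 2, WT 2, an order shared by 8 of the 11 dermal fibroblast markers and by 4.33% of all genes. The fibrillar collagen gene Col1a2 was at 13.10 and 11.86 on the KO arrays, against 13.89 and 11.34 on the WT arrays. The summed fibroblast marker level, on the linear scale, was 24748 and 12801 on the KO arrays and 45593 and 9751 on the WT arrays. The part of fibroblast RNA in the Lrp1 values was not tested. A dim probe set of Lrp1, 1442849_at, was higher in KO in both numbers, by 0.059 and 0.12. Of 12 other LDL receptor family genes 11 were measured, none passed, 2 were higher and 2 lower in both numbers, and the median difference was 0.058. Lrp8, a reelin receptor gene, differed by -0.25 (SE 0.15) and the WNT co-receptor gene Lrp5 by 0.10 (SE 0.082).

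**Figure D3:**
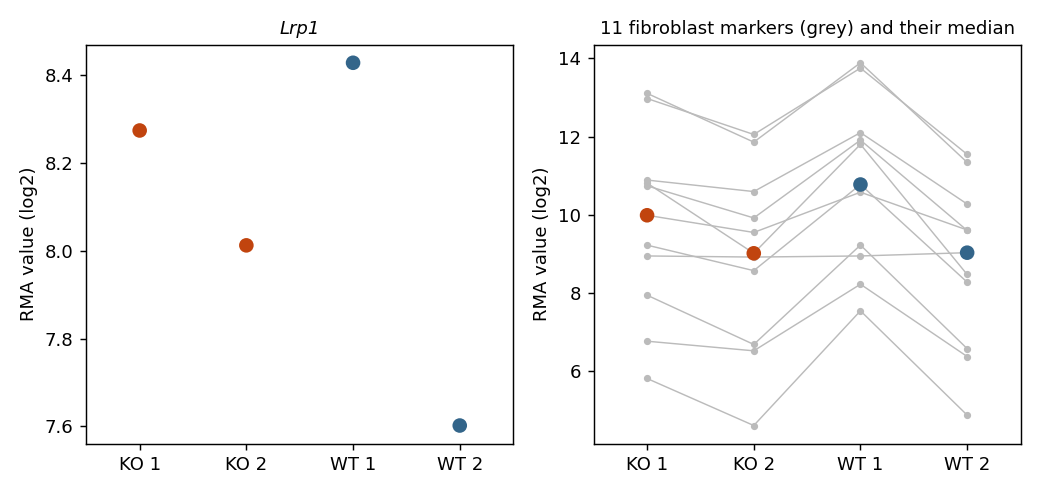
RMA values (log2) by array of Lrp1 (left) and of 11 dermal fibroblast markers with their median (right), KO arrays in red and WT arrays in blue. WT 1 is the highest array in both panels, with Lrp1 at 8.43 and the marker median at 10.77.

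E2f1 encodes a transcription factor that switches on genes of DNA replication when RB releases it, and it has been reported as a miR-205 target in melanoma cells. Probe set 1417878_at was at 7.34 and 7.84 on the KO arrays, against 7.19 and 7.95 on the WT arrays. The arrays numbered 2 were the higher pair and the KO values lay inside the WT range. The numbers differed by -0.63 (number 1 minus number 2), far more than the genotypes, at 0.024 (SE 0.37, 95% interval -1.13 to 1.18). The arrays thus do not exclude a 2.26-fold higher level in KO. The next probe set, 1431875_a_at, was nearly as bright, at 7.38 and 7.78 on the KO arrays against 7.13 and 7.66 on the WT arrays. It was higher in KO in both numbers, by 0.26 and 0.12, and was the 1 probe set above the median gene, among all those of the 10 targets, to be so. The third, 1447840_x_at, differed by -0.11 and -0.14. The probe sets of E2f1 therefore disagreed on the sign. Of the E2F and RB family 12 of 12 other genes were measured and none passed. 8 of the 12 were higher and 0 were lower in KO in both numbers, beside 24% and 16.8% of all genes, and the median difference was 0.096. Of the 12 genes 11 lie above the median gene, where 30.4% of genes were higher in both numbers. Rbl1 and Rbl2, relatives of RB, differed by 0.12 (SE 0.066) and 0.39 (SE 0.22). 9 of these 12 genes were also higher in number 1 than in number 2, unlike E2f1.

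Smad1 and Smad4 encode signal carriers of the TGF-beta superfamily: SMAD1 is phosphorylated by BMP receptors, and SMAD4 is the partner shared by the BMP and TGF-beta branches. BMP signalling is known to hold hair follicle stem cells at rest. Smad1, read by 1448208_at, was at 10.88 and 10.53 on the KO arrays, against 10.86 and 10.66 on the WT arrays. The difference was -0.050 (SE 0.17, 95% interval -0.58 to 0.48). All 3 probe sets of Smad1 had the same signs, KO being higher in number 1 by 0.028 to 0.14 and lower in number 2, with differences of -0.13 to -0.043. Smad4, read by 1422487_at, was at 11.58 and 11.34 on the KO arrays, against 11.46 and 11.40 on the WT arrays. The KO values lay on both sides of the WT values, and the difference was 0.032 (SE 0.11, 95% interval -0.30 to 0.37). Its other probe sets differed by -0.083 and -0.089 (1422486_a_at) and by -0.030 and 0.083 (1422485_at) in numbers 1 and 2. Among the other SMAD genes 6 of 6 were measured, none passed, 0 were higher and 2 were lower in both numbers, and the median difference was -0.066. Smad9 differed by -0.12 (SE 0.11) and Smad5, a close relative of Smad1, by 0.064 (SE 0.064). Of 8 BMP response genes none passed, 1 was higher and 2 were lower in both numbers, and the median difference was -0.016. The inhibitor of differentiation genes Id3 and Id4 differed by -0.20 (SE 0.13) and 0.21 (SE 0.15).

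Bcl2l2 encodes BCL-W, a survival protein of the BCL2 family that has been reported as a miR-205 target in prostate cancer cells. Probe set 1423572_at was at 9.01 and 8.73 on the KO arrays, against 8.83 and 8.82 on the WT arrays. The WT arrays nearly coincided, with KO 1 above and KO 2 below them. The difference was 0.044 (SE 0.12, 95% interval -0.33 to 0.41). None of its 4 probe sets was higher in KO in number 2, and 2 of the dim ones had exactly equal values on KO 2 and WT 2. Of 15 other BCL2 family genes 13 were measured, none passed, 3 were higher and 4 lower in both numbers, and the median difference was -0.0019. The death-promoting BH3-only genes Bbc3 and Bcl2l11 differed by -0.24 (SE 0.12) and -0.21 (SE 0.11).

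Ddx5 encodes an RNA helicase that takes part in transcription, splicing and the nuclear processing of some microRNA precursors. Its brightest probe set, 1438371_x_at, whose suffix marks probes that may match other sequences, was at 13.23 and 13.06 on the KO arrays, against 13.23 on each of the WT arrays. KO 2 was the low value, and the difference was -0.086 (SE 0.080, 95% interval -0.34 to 0.17). All 6 probe sets of Ddx5 were lower on KO 2 than on WT 2, with differences from -0.37 to -0.088, while 5 of the 6 were higher on KO 1 than on WT 1, by at most 0.11. These probe sets read 1 transcript on the same arrays and are not replicates. Of 7 related DEAD-box and microprocessor genes 7 were measured, none passed, 2 were higher and 1 was lower in both numbers, and the median difference was 0.014. The X-linked helicase gene Ddx3x differed by -0.19 (SE 0.11), where genotype and the Xist difference cannot be told apart, and Dgcr8, the partner of the Drosha nuclease, by 0.14 (SE 0.081).

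The precision of the 4 arrays set how large an increase of KO over WT could have gone unseen. The intervals bound the KO minus WT difference, in which genotype cannot be told apart from the sex-linked difference. The part of fibroblast RNA in that difference was not tested. For the brightest probe set of 8 of the 10 targets the 95% interval of limma lay wholly below a 1.5-fold rise (0.585 on the log2 scale), which also held for 81.7% of all genes. The upper bounds were 1.07-fold for Vegfa, 1.12-fold for Ddx5, 1.29-fold for Prkce, 1.29-fold for Smad4, 1.33-fold for Bcl2l2, 1.39-fold for Smad1, 1.45-fold for Src and 1.47-fold for Yes1. Lrp1 and E2f1 had wider intervals and are undecided at that size. For 5 of the 8 another probe set did not exclude a 1.5-fold rise: the widest upper bounds were 1.87-fold for Vegfa, 1.68-fold for Smad1, 1.90-fold for Smad4, 1.73-fold for Yes1 and 1.59-fold for Ddx5. Every probe set lay below 1.5-fold for the remaining 3, Prkce, Src and Bcl2l2. Smaller increases stay possible for all 10, and RMA values understate the fold of dim probe sets. An exact permutation of 2 against 2 arrays cannot go below a two-sided p of 0.333.

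**Figure D4:**
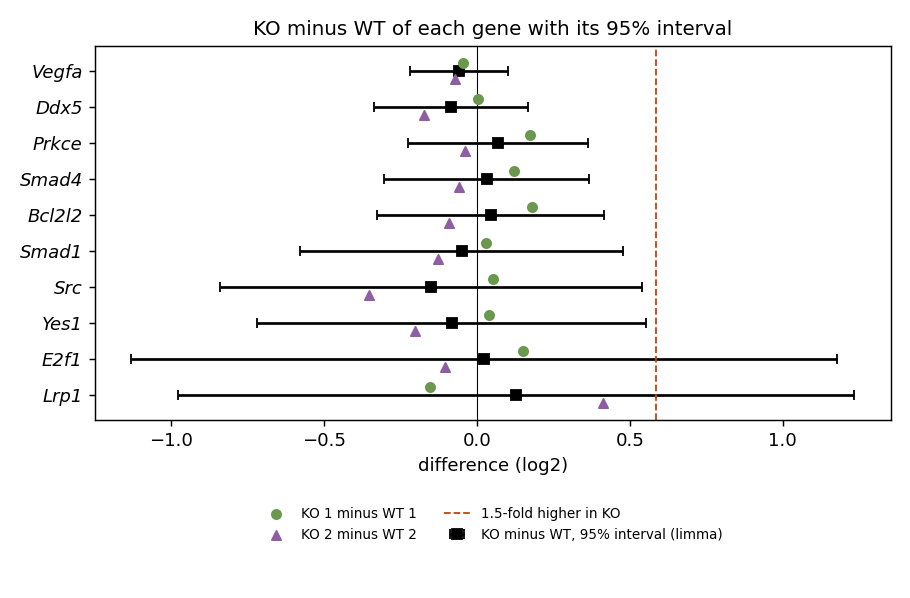
KO minus WT (log2, horizontal axis) of the brightest probe set of each target, as a square with its 95% limma interval, with the differences within number 1 (circles) and number 2 (triangles). The intervals of Lrp1 and E2f1 alone cross the dashed line at a 1.5-fold higher level in KO (0.585), and all 10 intervals include 0.

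Taking every probe set of the 10 genes, 33 in all, 3 were higher in KO in both numbers (22.6% of all probe sets with a single gene symbol were) and 6 were lower in both (17.4%). Another 21 had opposite signs in the numbers (34.4%), and 3 had equal values in 1 number. Of the 19 probe sets above the median gene, 1 was higher and 3 were lower in both numbers, and 15 had opposite signs. Exactly equal values on at least 2 arrays occurred in 10 of the 33 and, of the brightest probe sets, in 3 of 10, beside 43% of all genes.

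**Figure D5:**
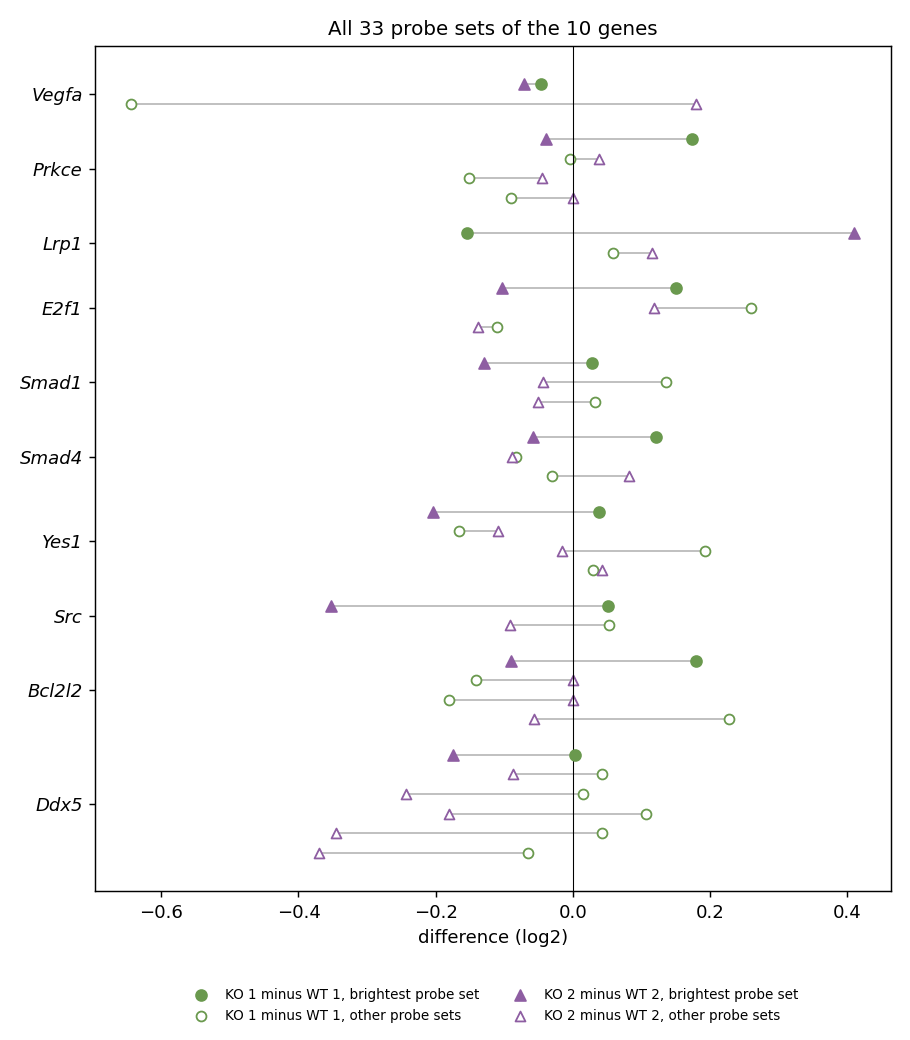
KO minus WT (log2, horizontal axis) in number 1 (circles) and number 2 (triangles) for all 33 probe sets of the 10 targets, the brightest of each gene filled and the others open, ordered by brightness within a gene. Points of 1 probe set are joined, and 21 of the 33 lines cross 0.

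Further genes reported as miR-205 targets were read beside the 10, from a list of 11 of which 8 were measured. None passed. In both numbers 3 were higher and 2 were lower in KO, beside 24% and 16.8% of all genes, and the median difference was -0.0088. Inppl1, the lipid phosphatase SHIP2, was at 8.86 and 9.14 on the KO arrays against 8.55 and 8.69 on the WT arrays, a difference of 0.38 (SE 0.13). The cytokine gene Il24 differed by -0.15 (SE 0.047) and was dim on all arrays. Over all the related genes listed here, 86 of 95 measured, 23 were higher and 16 were lower in both numbers, beside 24% and 16.8% of all genes. Their median difference was 0.015.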

How the data were processed

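RNA from sorted hair follicle stem cells was hybridised to 4 one-colour Affymetrix mouse arrays, 2 KO and 2 WT, and groups and numbers came from the titles. The deposited table holds log2 values per probe set that the authors made with RMA, per the submitters' processing notes. The sources used here name no probe set definition, build or scan date, and the table has no detection calls. The 45101 probe sets comprised 34945 with 1 symbol in GEO's platform annotation, 932 with several, 9160 with none here and 64 controls. Gene symbols were updated by gene identifier from the GRCm38.p6 RefSeq table (34741 matched), and the probe set of highest mean stood for each of 18193 genes.

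The comparison of KO with WT used R 4.3.3 and limma 3.58.1 (lmFit, then eBayes) without covariates. Tests were two-sided, p-values were adjusted by Benjamini-Hochberg across all genes, and the threshold was 0.05. Intervals are limma's 95% intervals and errors its moderated SE with 2 arrays per group. The code was tested on simulated data. A gene was called above the median gene where its mean exceeded 6.88, the median over genes. Differences were also taken between arrays of 1 number. The 10 genes and the lists of related genes and markers were chosen with earlier results of these data known. All 10 genes are named, with up to 2 genes of smallest p per related list, Xist, Eif2s3y and markers. Frk and Inppl1 are, from memory of the published study, among its miR-205 targets, so their direction is no independent evidence. The alternatives were other normalizations, a filter on dim genes, other uses of the probe sets, a replicate block, other eBayes settings and leaving out each array. The number of arrays limits the precision.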

Additional observations from a re-analysis of the deposited data

How the results depend on the processing

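No target passed under any alternative run. The count of genes past the threshold, 2, was 3 with median centring or quantile normalization again, 1 without dim genes (which removed none of the 10 targets and dropped Eif2s3y), and 0 with probe sets averaged per gene, with every probe set by itself, with the replicate block and without any 1 array, where limma gave an unadjusted p under 0.05 for 375, 711, 879 and 1044 to 2044 features. With averaged probe sets the sign turned for Prkce (-0.015), Smad4 (-0.0093) and Bcl2l2 (-0.0075), and the other 67 of 70 recomputed target differences with all arrays kept their sign. By its brightest probe set, no target was higher in KO in both numbers under either normalization or the filter on dim genes. The same held by the mean of its probe sets, which was taken on the deposited values only. On the deposited values 3 dimmer probe sets, of E2f1, Lrp1 and Yes1, were higher in KO in both numbers. Leaving out 1 array, differences ran from -0.038 to 0.17 for Prkce, -0.29 to 0.54 for Lrp1, -0.35 to 0.40 for E2f1, -0.23 to 0.13 for Smad1, -0.088 to 0.15 for Smad4, -0.31 to 0.14 for Yes1, -0.41 to 0.11 for Src, -0.094 to 0.18 for Bcl2l2, -0.17 to 0.0016 for Ddx5, -0.25 to 0.0026 for Smad9 and -0.011 to 0.29 for Prkca, while Vegfa stayed negative (-0.095 to -0.023). The median of the 10 ran from -0.091 without KO 1 to 0.13 without KO 2. The number of targets with every KO array above every WT array, a count added after seeing the data, ran from 0 to 6. The share of all genes with that order ran from 26.1% to 29.1% in these runs. The cause was not tested. Arrays of 1 number deviated together across genes (r = 0.557), but with 2 pairs this does not establish a pairing. With the replicate block the smallest adjusted p of a target was 0.81, the count of calls 0 and the median of the 10 unchanged at -0.013.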
